A study of Mus musculus with 10 samples.

Results

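The 10 genes Col1a1, Col1a2, Col3a1, Col4a1, Col4a2, Fn1, Sparc, Dcn, Ctgf and Timp3 encode collagen chains and other proteins of the extracellular matrix. They were chosen by name, as the rows whose gene symbol equals one of these names. Each had 1 row among the 36806 rows of each of 4 tables, and all 10 were measured in all 4 tables. A gene counts as measured where the authors' test was run and the ratio of the 2 conditions was finite and not 0.

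The study sequenced mRNA of the male germline of C57BL/6 mice that were Ago4-/- or Ago4+/+ and came from the same litters. Ago4 encodes an Argonaute protein, a member of a family that binds small RNAs. Cells at pachytene and cells at leptotene/zygotene, successive stages of the first meiotic prophase, came from mice of 70 days, and whole testes were taken at day 3 and at day 8. Each of these stages gave 1 mRNA library per genotype. Nothing in the labels says whether animals were pooled, how the Ago4 allele was made or how the spermatocytes were isolated. The 4 tables cover day 3 whole testis, pre-meiotic material, leptotene/zygotene cells and pachytene cells. The pre-meiotic table could be assigned to neither age of whole testis, and no table names day 8. The tables call their conditions 1 and 2 and attach no genotype. Nothing says that a number stands for the same genotype in all 4 tables, so a direction was read only within a table. Ago4, listed as Eif2c4, had 1.23 FPKM in condition 2 and 0.897 FPKM in condition 1 at day 3, and 3.34 FPKM in condition 2 and 2.53 FPKM in condition 1 of the pre-meiotic table. It had 3.26 FPKM in condition 2 and 1.67 FPKM in condition 1 at leptotene/zygotene, and 12.1 FPKM in condition 2 and 4.37 FPKM in condition 1 at pachytene. These levels were not used to assign a genotype.

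The extracellular matrix is the protein scaffold outside cells. Fibril-forming collagens such as types I and III give connective tissue its strength, while type IV collagen forms the sheet-like network of basement membranes. In the testis a basement membrane lies between the seminiferous tubule, which holds Sertoli cells and germ cells, and the surrounding peritubular myoid cells. Fibroblasts, Leydig cells, macrophages and blood vessels fill the space between tubules. Matrix genes are known mainly as products of these somatic cells and not of germ cells.

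Levels are given in FPKM, fragments scaled by transcript length and by the mapped fragments of the library, which takes gene length into account. Depth is unknown, since the tables give no counts. Folds are log2((condition 2 + 0.1)/(condition 1 + 0.1)), with 0.1 FPKM added to each level, which makes the folds of low genes smaller than the plain ratio. The error beside a fold is the size of the authors' log2 fold divided by their test statistic, called the implied error. It covers what the authors' Cuffdiff test allows for between 2 conditions, not the spread between animals. A gene is said to have risen or fallen if its q-value from the authors is 0.05 or lower. With 1 library per condition there is no replicate check, and each q-value compares 2 libraries, not 2 genotypes.

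The 10 genes had their highest levels in the young testis and were low in both spermatocyte tables, and they differed widely among themselves in rank. Their FPKM summed to 6466 in condition 2 and 8654 in condition 1 at day 3, and to 3452 in condition 2 and 2860 in condition 1 of the pre-meiotic table. At leptotene/zygotene the sums were 63.0 FPKM in condition 2 and 35.1 FPKM in condition 1, and at pachytene 76.1 FPKM in condition 2 and 44.1 FPKM in condition 1. The tables may have been normalized separately, so levels in different tables stand side by side and were not tested. Sparc ranked 51 in condition 2 and 28 in condition 1 among the 22590 genes measured at day 3. Its ranks in the pre-meiotic table, among 18968 genes, were 21 in condition 2 and 26 in condition 1. At pachytene its ranks were 3214 in condition 2 and 4164 in condition 1 of 20730 genes. Col3a1 ranked 120 in condition 2 and 75 in condition 1 at day 3, against 15051 in condition 2 and 17629 in condition 1 at pachytene. The lowest of the 10 at day 3 was Timp3, with ranks of 3606 in condition 2 and 2336 in condition 1. Ctgf had ranks of 2275 in condition 2 and 3846 in condition 1 of the pre-meiotic table.

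**Figure D1:**
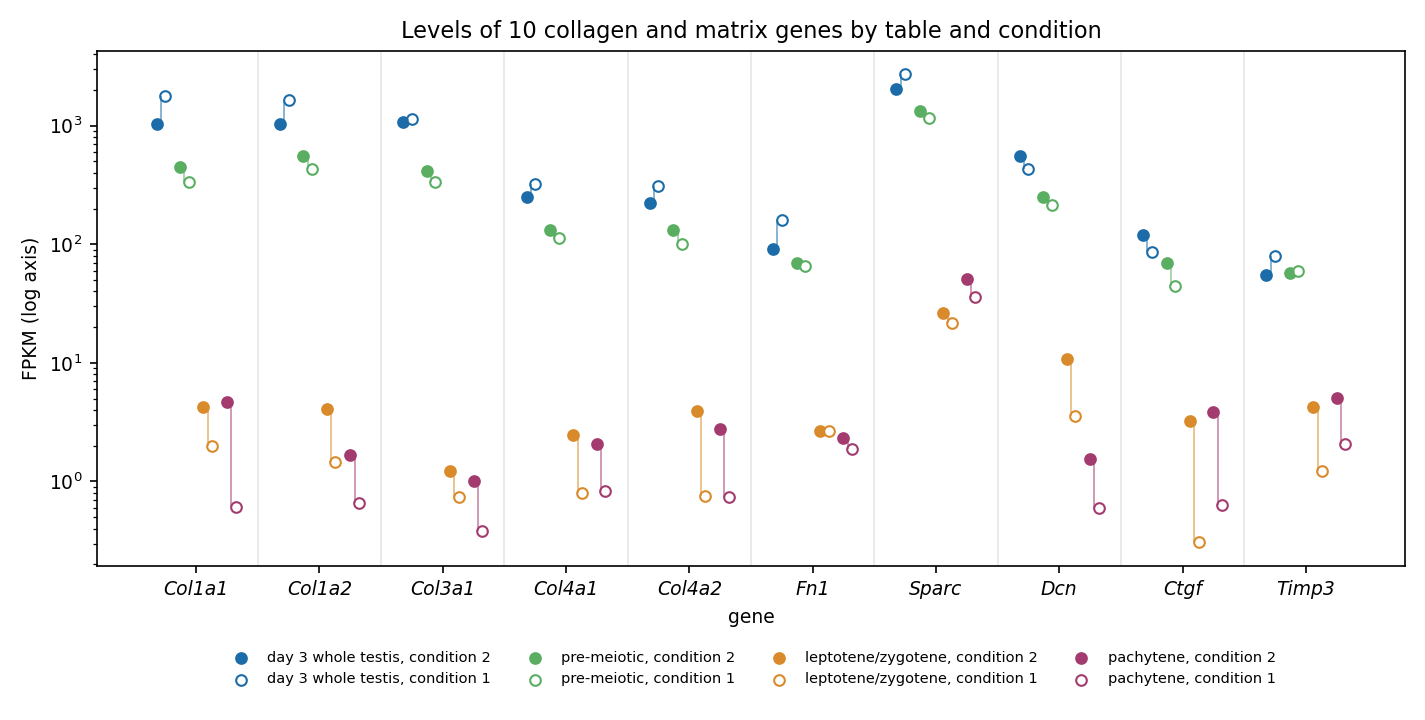
FPKM on a log axis for each of the 10 genes, with the tables from day 3 to pachytene in colour. Condition 2 is shown as filled points and condition 1 as open points, 1 table column each. All 10 genes lie lower in both spermatocyte tables than in the pre-meiotic table, and at pachytene every filled point lies above its open point.

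The largest step between neighbouring tables lay between the leptotene/zygotene and the pre-meiotic table, where all 10 genes were lower in both columns, with no overlap. Of 20339 genes, 60.1% were lower without overlap and 30.2% were higher. The median ratio of pre-meiotic to leptotene/zygotene level, taken from the geometric mean of the 2 columns of a table, was 61.4 and ran from 25.3 in Fn1 to 390 in Col3a1. Col1a2 had a ratio of 202 and Col1a1 of 134, so the 3 fibril-forming chains stood at the top of this order. Timp3 had a ratio of 25.3, as Fn1 did.

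From day 3 to the pre-meiotic table, 9 of the 10 genes were lower in both pre-meiotic columns than in both day 3 columns. Over 19138 genes the shares were 39.3% lower and 32.0% higher. The median ratio of day 3 to pre-meiotic level was 2.19, with 3.46 for Col1a1 at the top and 1.14 for Timp3 at the bottom. Timp3 was the 1 gene whose columns overlapped. Between leptotene/zygotene and pachytene, 7 genes overlapped, Dcn and Fn1 were lower at pachytene and Sparc was higher. The shares over 17384 genes were 23.0% lower and 46.2% higher. Dcn stood apart in size, with a leptotene/zygotene level 6.42 times its pachytene level, while Fn1 had a ratio of 1.28.

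The order of the genes also differed between tables. At day 3, Sparc stood above all others, followed by Col1a1, Col1a2 and Col3a1, whose ranges over the 2 conditions overlapped, then Dcn, Col4a1 and Col4a2, Fn1 and Ctgf, and Timp3. The pre-meiotic table gave the same order, apart from Col1a2 before Col1a1 and Timp3 before Ctgf, and the ranges of each of these pairs overlapped there. At leptotene/zygotene Sparc again stood alone at the top, and below it each gene's range overlapped that of its neighbour. Pachytene showed the same, with Sparc at 51.1 FPKM in condition 2 and 35.7 FPKM in condition 1 and no other gene above 5.09 FPKM.

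Sparc made up a growing part of the summed level. Its share of the 10-gene sum was 31.4% in condition 2 and 31.4% in condition 1 at day 3, and 38.3% in condition 2 and 40.5% in condition 1 of the pre-meiotic table. At leptotene/zygotene its share was 41.4% in condition 2 and 61.5% in condition 1, and at pachytene 67.1% in condition 2 and 81.0% in condition 1. The ratio of Sparc to Col1a2 was 30.4 in condition 2 and 54.1 in condition 1 at pachytene, against 1.97 in condition 2 and 1.64 in condition 1 at day 3. The make-up of the summed level thus differed between the pachytene and day 3 tables. Sparc is also known to be expressed by Sertoli cells, the somatic cells inside the tubule. Summed Sertoli markers were 167 FPKM in condition 2 and 141 FPKM in condition 1 at pachytene, and 66.0 FPKM in condition 2 and 82.3 FPKM in condition 1 at leptotene/zygotene. The part of Sertoli cells in the Sparc level was not tested.

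**Figure D2:**
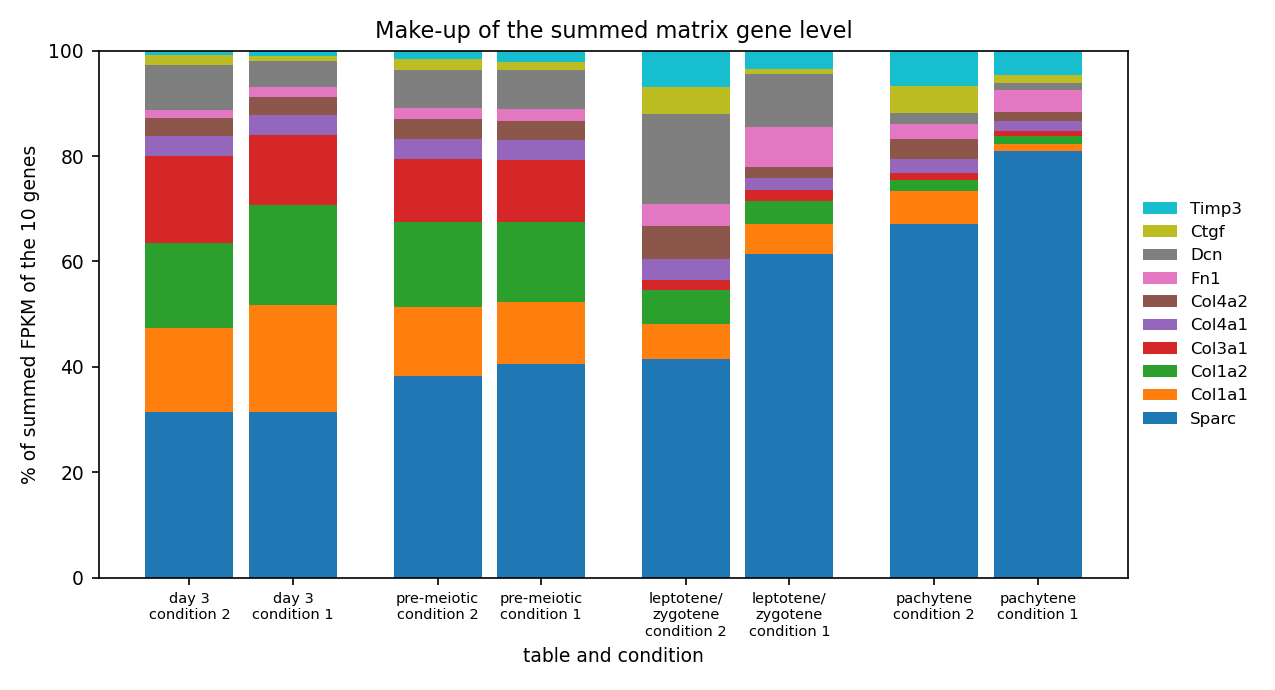
Share of each of the 10 genes in their summed FPKM, in percent, with 1 bar per table and condition. The Sparc share is 31.4% in both conditions of day 3 and 67.1% in condition 2 and 81.0% in condition 1 at pachytene, while the Col3a1 band narrows.

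In each of the 2 spermatocyte tables some of the members rose in condition 2. Of the 10 genes, 4 rose in condition 2 at leptotene/zygotene and 4 at pachytene, and none fell in either. The authors' q-value called 0.817% of 18368 measured genes higher and 1.39% lower at leptotene/zygotene, and 0.656% of 20730 higher and 1.05% lower at pachytene. The median log2 fold of the 10 was 1.46 at leptotene/zygotene, with a range of -0.01 to 3.04, beside a median of -0.06 over all measured genes. At pachytene it was 1.24, with a range of 0.29 to 2.76, beside 0.03 over all measured genes. A level at least 2-fold higher in condition 2 was found for 7 members at leptotene/zygotene and 8 at pachytene. With 1 FPKM added in place of 0.1, the pachytene count was 3 and the pachytene median 0.72, and at a q-value of 0.01 or lower 1 member, Ctgf, was called there. With 0.1 FPKM added, levels at least 2-fold higher made up 6.33% of all measured genes at leptotene/zygotene and 5.76% at pachytene. They made up 5.09% and 4.09% of genes with at least 1 FPKM in 1 condition, which all 10 members had in every table. The share over all genes was not counted with 1 FPKM added or at a q-value of 0.01 or lower. Members above 0 were 9 at leptotene/zygotene and 10 at pachytene, where 42.5% and 54.1% of genes with at least 1 FPKM lay above 0.

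In the pre-meiotic table the member folds were smaller in size. Of the 10 genes, 4 rose in condition 2 and none fell, where 0.480% of 18968 measured genes were called higher and 0.712% lower. The median log2 fold was 0.26, with a range of -0.07 to 0.65, beside -0.0048 over all measured genes. Members above 0 were 9 of 10, where 48.7% of genes with at least 1 FPKM lay above 0. No member reached 2-fold, which 3.98% of measured genes and 2.94% of those with at least 1 FPKM did on the higher side. The implied errors were small here, with a median of 0.092 over the members and 0.25 over all measured genes.

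In day 3 testis most member folds lay below 0. None of the 10 genes rose in condition 2 and 2 fell, Col1a1 and Fn1, where 5.03% of 22590 measured genes were called higher and 10.4% lower. The median log2 fold was -0.45, with a range of -0.81 to 0.45, beside 0.03 over all measured genes. Members above 0 were Dcn and Ctgf, 2 of 10, where 53.8% of genes with at least 1 FPKM lay above 0. No member was 2-fold higher, against 3.47% of measured genes and 2.89% of those with at least 1 FPKM. In bulk samples such as these, fewer cells of a type and less RNA per cell cannot be told apart.

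**Figure D3:**
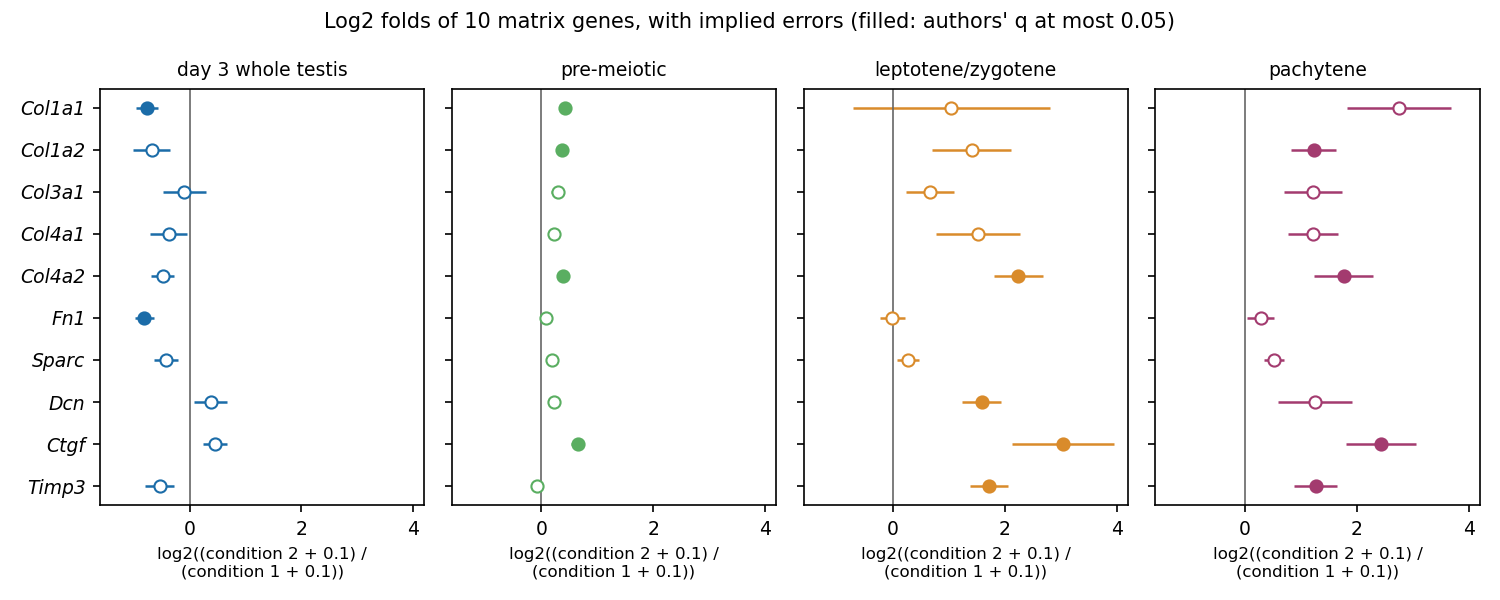
Log2 fold of condition 2 over condition 1 for the 10 genes in each table, on the log2(FPKM + 0.1) scale, with bars of 1 implied error to each side and filled points for q-values of 0.05 or lower. The medians are -0.45 at day 3, 0.26 in the pre-meiotic table, 1.46 at leptotene/zygotene and 1.24 at pachytene.

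Col1a1 (ENSMUSG00000001506) and Col1a2 (ENSMUSG00000029661) encode the chains that assemble into type I collagen, the main fibril of connective tissue. In the tables' own coordinates, with a build not given in the sources used here, Col1a1 lies on chromosome 11 from 94797537 to 94814356, with a locus shared with Gm17329, and Col1a2 on chromosome 6 from 4454813 to 4491543. Col1a1 had 1037 FPKM in condition 2 and 1759 FPKM in condition 1 at day 3, and 452 FPKM in condition 2 and 337 FPKM in condition 1 of the pre-meiotic table. The day 3 log2 fold was -0.76, with an implied error of 0.20 and the authors' deposited table gave a q-value of 0.00262. The pre-meiotic log2 fold was 0.42, with an implied error of 0.091 and a q-value of 0.00109 in the authors' deposited table. So Col1a1 fell in condition 2 at day 3 and rose in condition 2 of the pre-meiotic table. At leptotene/zygotene it had 4.24 FPKM in condition 2 and 2.01 FPKM in condition 1, and at pachytene 4.72 FPKM in condition 2 and 0.612 FPKM in condition 1. The pachytene log2 fold of 2.76 was the largest of the 10 genes, but its implied error was 0.93 and the q-value in the authors' deposited table was 0.0767. The leptotene/zygotene fold had an implied error of 1.77, wider than the log2 fold of 1.04 itself.

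Col1a2 had 1032 FPKM in condition 2 and 1651 FPKM in condition 1 at day 3, close to the levels of Col1a1, and its q-value in the authors' deposited table was 0.163. In the pre-meiotic table it had 558 FPKM in condition 2 and 433 FPKM in condition 1, and it rose with a log2 fold of 0.36, an implied error of 0.067 and a q-value of 2.95e-05 in the authors' deposited table. At pachytene it had 1.68 FPKM in condition 2 and 0.661 FPKM in condition 1, a log2 fold of 1.23 with an implied error of 0.40 and a q-value of 0.0489 in the authors' deposited table. That rise passed the limit by little. At leptotene/zygotene the levels were 4.05 FPKM in condition 2 and 1.47 FPKM in condition 1, with a q-value of 0.394 in the authors' deposited table. The ratio of Col1a1 to Col1a2 was 1.005 in condition 2 and 1.07 in condition 1 at day 3, and 2.80 in condition 2 and 0.926 in condition 1 at pachytene.

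Promoter windows from 250 bases before to 50 after the start of the gene were taken from RefSeq, build GRCm38.p6, and 6 of the 10 genes had one. They are shown for the genes with a window that rose in at least 1 spermatocyte table and for Col4a1, the neighbour of Col4a2. Their coordinates belong to that build and are not to be compared with those of the tables. Both strands were searched for TATAAA, the TATA box, found in 13.6% of all 32851 RefSeq windows, and for CCAAT, the CCAAT box, found in 37.4%. GGGCGG, the GC box, was found in 35.7%, GGAATG, the core motif of TEAD factors, in 14.7%, and TGANTCA, the core motif of AP-1, in 7.81%. Capitals in the sequences mark every match on either strand. A match is a description of the letters and no sign of a bound factor. Col1a2, at chr6:4505368-4505667 on the plus strand, holds 2 matches of CCAAT, 2 of GGGCGG and none of the other motifs.
Col1a2: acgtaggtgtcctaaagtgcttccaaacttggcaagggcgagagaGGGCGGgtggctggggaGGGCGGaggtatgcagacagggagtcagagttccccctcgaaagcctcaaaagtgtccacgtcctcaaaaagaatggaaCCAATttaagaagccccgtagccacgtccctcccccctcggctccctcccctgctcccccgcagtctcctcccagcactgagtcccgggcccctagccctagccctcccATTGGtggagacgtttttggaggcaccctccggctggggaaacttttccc

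Col3a1 (ENSMUSG00000026043, chromosome 1 from 45368382 to 45406551) encodes the chain of type III collagen, which forms finer fibrils beside type I in soft tissues. It had 1074 FPKM in condition 2 and 1145 FPKM in condition 1 at day 3, and 411 FPKM in condition 2 and 335 FPKM in condition 1 of the pre-meiotic table. At leptotene/zygotene it had 1.22 FPKM in condition 2 and 0.741 FPKM in condition 1, and at pachytene 1.01 FPKM in condition 2 and 0.380 FPKM in condition 1. Col3a1 was not called in any table. Its q-values in the authors' deposited table were 0.907 at day 3, 0.238 in the pre-meiotic table, 0.529 at leptotene/zygotene and 0.166 at pachytene. Its log2 folds were -0.09 at day 3, 0.29 in the pre-meiotic table, 0.65 at leptotene/zygotene and 1.21 at pachytene, and the day 3 fold was smaller than its implied error of 0.39.

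Col4a1 (ENSMUSG00000031502) and Col4a2 (ENSMUSG00000031503) encode the chains of the common type IV collagen of basement membranes. They are a textbook pair of genes that start next to each other and are read in opposite directions. The tables give both the same locus, chromosome 8 from 11187754 to 11449287, which also holds Gm15418 and Gm15419. Col4a2 had 3.92 FPKM in condition 2 and 0.7501 FPKM in condition 1 at leptotene/zygotene, and 2.75 FPKM in condition 2 and 0.740 FPKM in condition 1 at pachytene. It rose in condition 2 at leptotene/zygotene with a log2 fold of 2.24, an implied error of 0.44 and a q-value of 2.94e-05 in the authors' deposited table. At pachytene it rose with a log2 fold of 1.76, an implied error of 0.53 and a q-value of 0.0274 in the authors' deposited table. The third rise came in the pre-meiotic table, at 132 FPKM in condition 2 and 100 FPKM in condition 1, with a log2 fold of 0.39, an implied error of 0.091 and a q-value of 0.00387 in the authors' deposited table. At day 3 it had 221 FPKM in condition 2 and 308 FPKM in condition 1, with a q-value of 0.0975 in the authors' deposited table. Col4a2 and Ctgf were the only members called in 3 of the 4 tables.

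Col4a1 had its folds on the same side of 0 as Col4a2 in all 4 tables, but it was called in none. It had 2.45 FPKM in condition 2 and 0.793 FPKM in condition 1 at leptotene/zygotene, with a log2 fold of 1.51 and an implied error of 0.75. At pachytene it had 2.05 FPKM in condition 2 and 0.825 FPKM in condition 1, with a log2 fold of 1.22 and an implied error of 0.45. The q-values in the authors' deposited table were 0.351 at leptotene/zygotene and 0.118 at pachytene. At day 3 it had 250.1 FPKM in condition 2 and 324 FPKM in condition 1, and in the pre-meiotic table it had 133 FPKM in condition 2 and 113 FPKM in condition 1, with q-values of 0.489 and 0.284 in the authors' deposited table. In level the pair was close at day 3, where the ratio of Col4a1 to Col4a2 was 1.13 in condition 2 and 1.05 in condition 1. In the spermatocyte tables Col4a1 was the lower of the pair in condition 2 only. The ratio at leptotene/zygotene was 0.626 in condition 2 and 1.06 in condition 1. At pachytene it was 0.745 in condition 2 and 1.11 in condition 1. No strand-keeping step is named in the protocols, and reads of a stretch that both genes share could not be assigned by strand.

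The promoter windows of the pair show how close they lie. Col4a1 is at chr8:11312777-11313076 on the minus strand and Col4a2 at chr8:11312555-11312854 on the plus strand of GRCm38.p6. The windows share 78 bases, and the RefSeq start sites lie 21 bases apart. Both windows hold CCAAT and GGGCGG matches and no match of the other motifs, and each is printed 5′ to 3′ on the strand of its own gene.
Col4a1: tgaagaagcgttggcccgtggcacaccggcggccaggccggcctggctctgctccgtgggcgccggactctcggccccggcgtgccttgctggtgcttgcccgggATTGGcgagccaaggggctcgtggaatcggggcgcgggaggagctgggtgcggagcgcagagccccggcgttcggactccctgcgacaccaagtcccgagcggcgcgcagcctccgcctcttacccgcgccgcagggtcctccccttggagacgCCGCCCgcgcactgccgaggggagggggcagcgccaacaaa
Col4a2: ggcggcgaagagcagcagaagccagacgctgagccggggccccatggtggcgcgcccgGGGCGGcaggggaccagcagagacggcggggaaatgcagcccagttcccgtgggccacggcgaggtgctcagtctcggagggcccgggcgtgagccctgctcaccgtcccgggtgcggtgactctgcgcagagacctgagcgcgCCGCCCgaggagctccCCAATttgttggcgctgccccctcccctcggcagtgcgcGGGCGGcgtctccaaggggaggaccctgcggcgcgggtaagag

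Fn1 (ENSMUSG00000026193, chromosome 1 from 71632093 to 71709417, a locus shared with Apol7d) encodes fibronectin, a glycoprotein that links cells to collagen through integrins. It had 90.9 FPKM in condition 2 and 159 FPKM in condition 1 at day 3. That was the largest fall of the 10 genes, a log2 fold of -0.81 with an implied error of 0.17 and a q-value of 6.05e-05 in the authors' deposited table. In the other tables the 2 conditions were close. Fn1 had 69.6 FPKM in condition 2 and 65.4 FPKM in condition 1 of the pre-meiotic table, 2.66 FPKM in condition 2 and 2.68 FPKM in condition 1 at leptotene/zygotene, and 2.31 FPKM in condition 2 and 1.87 FPKM in condition 1 at pachytene. Its leptotene/zygotene log2 fold of -0.01, with an implied error of 0.23, was the 1 member fold below 0 there, and it became 0.06 when the median fold of all genes with at least 1 FPKM was subtracted. The q-values in the authors' deposited table were 0.567 in the pre-meiotic table, 0.994 at leptotene/zygotene and 0.6998 at pachytene.

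Sparc (ENSMUSG00000018593, chromosome 11 from 55208001 to 55233582) encodes osteonectin, a glycoprotein that binds collagen and calcium. It had 2030 FPKM in condition 2 and 2713 FPKM in condition 1 at day 3, and 1322 FPKM in condition 2 and 1159 FPKM in condition 1 of the pre-meiotic table. At leptotene/zygotene it had 26.1 FPKM in condition 2 and 21.6 FPKM in condition 1. Its log2 fold was 0.27 there and 0.51 at pachytene, with implied errors of 0.20 and 0.18, and the q-values in the authors' deposited table were 0.615 and 0.137. Sparc was called in no table and, with Fn1, made up the members under 2-fold at pachytene. Because Sparc held most of the sum there, leaving it out raised the ratio of condition 2 to condition 1 of the summed level to 2.99 at pachytene, against 1.73 with it. At leptotene/zygotene the ratio was 2.73 without Sparc and 1.80 with it.

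Dcn (ENSMUSG00000019929, chromosome 10 from 96942244 to 96980777) encodes decorin, a small leucine-rich proteoglycan that binds collagen fibrils. It had 10.8 FPKM in condition 2 and 3.54 FPKM in condition 1 at leptotene/zygotene, and it rose with a log2 fold of 1.59, an implied error of 0.35 and a q-value of 0.000877 in the authors' deposited table. At pachytene it had 1.56 FPKM in condition 2 and 0.596 FPKM in condition 1, a log2 fold of 1.25 with an implied error of 0.66 and a q-value of 0.388 in the authors' deposited table. The fold was similar but the error was wider. Dcn had 555 FPKM in condition 2 and 428 FPKM in condition 1 at day 3, with a q-value of 0.427 in the authors' deposited table. In the pre-meiotic table it had 248.6 FPKM in condition 2 and 213 FPKM in condition 1, with a q-value of 0.299. At day 3 its log2 fold of 0.38 was on the opposite side of 0 from all 5 collagen chains, and its ratio to Col1a2 was 0.538 in condition 2 and 0.259 in condition 1.

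Ctgf (ENSMUSG00000019997, chromosome 10 from 24269246 to 24318489, a locus shared with Gm15270 and Gm6893) encodes connective tissue growth factor, a secreted signalling protein of the CCN family, also named Ccn2. It is widely used as a readout of YAP and TGF-beta signalling. At leptotene/zygotene it had 3.25 FPKM in condition 2 and 0.306 FPKM in condition 1, and at pachytene 3.87 FPKM in condition 2 and 0.636 FPKM in condition 1. It rose in condition 2 of both, with a log2 fold of 3.04, an implied error of 0.91 and a q-value of 0.0158 in the authors' deposited table at leptotene/zygotene. The pachytene log2 fold was 2.43, with an implied error of 0.63 and a q-value of 0.00514 in the authors' deposited table. In the pre-meiotic table it had 69.6 FPKM in condition 2 and 44.4 FPKM in condition 1 and rose with a log2 fold of 0.65, an implied error of 0.12 and a q-value of 8.89e-05 in the authors' deposited table. That was the largest member fold of the pre-meiotic table. At day 3 it had 119 FPKM in condition 2 and 86.8 FPKM in condition 1, with a q-value of 0.158 in the authors' deposited table.

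Timp3 (ENSMUSG00000020044, chromosome 10 from 85517869 to 85961641) encodes a matrix-bound inhibitor of metalloproteinases, the enzymes that cut matrix proteins. Its locus also holds Syn3, 4930486F22Rik, Gm15990 and SNORA73. At leptotene/zygotene it had 4.28 FPKM in condition 2 and 1.23 FPKM in condition 1, and it rose with a log2 fold of 1.72, an implied error of 0.34 and a q-value of 4.8e-05 in the authors' deposited table. At pachytene it had 5.09 FPKM in condition 2 and 2.06 FPKM in condition 1, and it rose with a log2 fold of 1.27, an implied error of 0.38 and a q-value of 0.0424 in the authors' deposited table. In the other tables no change was called. Timp3 had 56.7 FPKM in condition 2 and 59.6 FPKM in condition 1 of the pre-meiotic table, the 1 member fold below 0 there, with a q-value of 0.848 in the authors' deposited table. At day 3 it had 55.2 FPKM in condition 2 and 80.1 FPKM in condition 1, with a q-value of 0.161 in the authors' deposited table. The Timp3 window, at chr10:86300162-86300461 on the plus strand of GRCm38.p6, holds GGGCGG on the minus strand at 2 places and none of the other motifs.
Timp3: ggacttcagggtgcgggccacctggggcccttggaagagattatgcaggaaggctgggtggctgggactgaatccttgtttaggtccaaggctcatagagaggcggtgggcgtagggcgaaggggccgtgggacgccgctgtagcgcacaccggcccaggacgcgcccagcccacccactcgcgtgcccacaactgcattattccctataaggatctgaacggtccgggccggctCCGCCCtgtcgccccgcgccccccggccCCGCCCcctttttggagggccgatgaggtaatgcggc

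Other genes of the matrix, 169 in 9 lists, had medians nearer to 0 than those of the 10 members in every table. At leptotene/zygotene 131 were measured, with a median log2 fold of 0.15, and 4 rose and 2 fell. These were 3.05% and 1.53%, where 0.817% of all measured genes were called higher and 1.39% lower. At pachytene 151 were measured, with a median of 0.34, and 3 rose, or 1.99%, and none fell. Over all measured genes 0.656% were called higher and 1.05% lower there. The pre-meiotic median was 0.19 over 161 measured genes, with 10 that rose, or 6.21%, and none that fell. Of all genes measured there, 0.480% were called higher and 0.712% lower. At day 3 the median was -0.15 over 163 measured genes, with 18 that rose and 35 that fell. These were 11.0% and 21.5%, where 5.03% of all measured genes were called higher and 10.4% lower. At least 2-fold higher in condition 2 were 28 of these genes at leptotene/zygotene, 21.4% of those measured, and 28 at pachytene, 18.5%. Over all measured genes the shares were 6.33% and 5.76%. At least 2-fold lower were 12 at leptotene/zygotene and 8 at pachytene, a side for which the share over all genes was not counted. These lists and the 10 members share their libraries, and the difference between them was not tested.

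Among the other genes that rose at leptotene/zygotene, Sparcl1, which encodes a relative of Sparc, had 8.83 FPKM in condition 2 and 1.89 FPKM in condition 1, with a q-value of 3.92e-08 in the authors' deposited table. The basement membrane genes Lamc3, a laminin chain, and Nid1, which encodes the laminin-binding protein nidogen, rose too. Lamc3 had 6.10 FPKM in condition 2 and 0.460 FPKM in condition 1, and Nid1 had 1.12 FPKM in condition 2 and 0.345 FPKM in condition 1, with q-values of 0.00609 and 0.0419 in the authors' deposited table. Adamts1, a secreted protease that cuts proteoglycans, rose in both spermatocyte tables. It had 5.64 FPKM in condition 2 and 1.92 FPKM in condition 1 at leptotene/zygotene, and 4.01 FPKM in condition 2 and 1.41 FPKM in condition 1 at pachytene, with q-values of 0.000424 and 0.00387 in the authors' deposited table. Sparcl1 also rose at pachytene, at 5.88 FPKM in condition 2 and 2.04 FPKM in condition 1, with a q-value of 0.0282 in the authors' deposited table. Bgn, which encodes biglycan, a close relative of decorin, had 4.25 FPKM in condition 2 and 0.599 FPKM in condition 1 at pachytene, with a q-value of 0.000341 in the authors' deposited table. Col2a1, the cartilage collagen chain, and Sdc2, a cell-surface proteoglycan, fell at leptotene/zygotene. Col2a1 had 7.60 FPKM in condition 2 and 15.2 FPKM in condition 1, and Sdc2 had 3.61 FPKM in condition 2 and 7.69 FPKM in condition 1, with q-values of 0.0209 and 0.0121 in the authors' deposited table.

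Among these lists, the other collagen chains had a median log2 fold of 0.18 over 22 measured chains at leptotene/zygotene, with a range of -1.08 to 2.20, and 0.16 over 27 at pachytene, with a range of -1.44 to 1.03. None of them rose in either table. Col6a1, a chain of the beaded-filament collagen VI with the highest mean level over the 8 columns of all tables, had 0.928 FPKM in condition 2 and 0.403 FPKM in condition 1 at pachytene, with a q-value of 0.471 in the authors' deposited table. Genes for collagen folding and crosslinking had medians of -0.16 at leptotene/zygotene over 20 measured genes and 0.29 at pachytene over 20, with none called. P4hb, a subunit of the enzyme that hydroxylates collagen prolines, had 35.9 FPKM in condition 2 and 29.4 FPKM in condition 1 at pachytene, with a q-value of 0.697 in the authors' deposited table. Genes of the TGF-beta pathway, which is known to raise collagen gene expression, had medians of 0.07 at leptotene/zygotene and 0.00022 at pachytene, with none called. The lists of matrix glycoproteins, proteoglycans, and proteases and their inhibitors had medians of 0.55, 0.17 and 0.26 at leptotene/zygotene and 0.35, 0.55 and 0.70 at pachytene. The basement membrane list had medians of 0.52 at leptotene/zygotene, with 2 of 13 measured genes that rose, and 0.62 at pachytene with none called. The matrix receptors had medians of -0.17 at leptotene/zygotene and 0.18 at pachytene. The CCN family list had the highest medians of the 9, 0.76 over 2 measured genes at leptotene/zygotene and 1.02 over 3 at pachytene, with none called.

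In the pre-meiotic table, the 10 other matrix genes that rose came from several lists. Mfap4, a protein of elastic fibres, had 310 FPKM in condition 2 and 207 FPKM in condition 1, with a q-value of 5.06e-05 in the authors' deposited table. Loxl1, which crosslinks elastin, had 25.2 FPKM in condition 2 and 14.3 FPKM in condition 1, with a q-value of 0.00179 in the authors' deposited table. Bgn had 251 FPKM in condition 2 and 193 FPKM in condition 1, with a q-value of 0.00796 in the authors' deposited table. Col5a2, a chain that joins type I fibrils, had 62.2 FPKM in condition 2 and 42.6 FPKM in condition 1, with a q-value of 0.00536 in the authors' deposited table. All 13 measured genes of the basement membrane list lay above 0, with a median log2 fold of 0.18, and 1 of them, the laminin chain Lama2, rose.

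At day 3, matrix genes moved in both directions. Calls were common in this table, with 10.4% of all measured genes lower and 5.03% higher. Matrix receptors lay below 0 in 17 of 18 genes, with a median log2 fold of -0.38, and 7 of them fell. Itga2, a collagen-binding integrin chain, had 0.147 FPKM in condition 2 and 0.974 FPKM in condition 1, and Itga8 had 2.15 FPKM in condition 2 and 6.69 FPKM in condition 1, with q-values of 1.22e-07 and 4.36e-05 in the authors' deposited table. Of the other collagen chains 5 fell and 1 rose. Among those that fell were Col4a3, at 4.54 FPKM in condition 2 and 14.7 FPKM in condition 1, and Col4a4, at 10.9 FPKM in condition 2 and 37.9 FPKM in condition 1. These are the type IV chains of specialised basement membranes and, like Col4a1 and Col4a2, lie side by side in the genome. Collagen folding and crosslinking genes split, with 5 that rose and 6 that fell. P4hb rose, at 644 FPKM in condition 2 and 424 FPKM in condition 1, with a q-value of 0.00191 in the authors' deposited table. Nov, of the same CCN family as Ctgf and now named Ccn3, rose at 5.78 FPKM in condition 2 and 0.869 FPKM in condition 1, with a q-value of 9.99e-12 in the authors' deposited table.

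Markers of some other cell types, but not of all, moved beside the members in the spermatocyte tables. Of all measured genes, 0.817% were called higher and 1.39% lower at leptotene/zygotene, and 0.656% higher and 1.05% lower at pachytene. At leptotene/zygotene the peritubular myoid list had a median log2 fold of 1.98, and 5 of its 10 genes rose, Acta2, Des, Myh11, Tagln and Tpm2. Des, the muscle intermediate filament, had 3.54 FPKM in condition 2 and 0.130 FPKM in condition 1, with a q-value of 0.00167 in the authors' deposited table. The summed level of the list was 489 FPKM in condition 2 and 444 FPKM in condition 1, most of it Actg2, with 404 FPKM in condition 2 and 414 FPKM in condition 1. Erythrocyte markers had a median log2 fold of 3.02 and rose in 4 of 6 measured genes, the globin genes, with sums of 337 FPKM in condition 2 and 39.8 FPKM in condition 1. Endothelial markers had a median of 1.08 and sums of 26.7 FPKM in condition 2 and 17.5 FPKM in condition 1, and 1 of 12, Kdr, rose. Fibroblast markers had a median of 0.81 over 9 measured of 13, with sums of 29.0 FPKM in condition 2 and 24.8 FPKM in condition 1, and none was called. Of the measured ones 7 lay above 0, among them Pdgfra with 0.874 FPKM in condition 2 and 0.321 FPKM in condition 1. The 2 below 0 were Fbln1, at 0.993 FPKM in condition 2 and 3.22 FPKM in condition 1, and Mfap5. Mfap5 had 5.82 FPKM in condition 2 and 9.45 FPKM in condition 1. Twist2 was listed at 0 in both conditions, and Dpt and Twist1 were listed at 0 in condition 1. Macrophage markers had a median of 0.35 and 1 of 8 measured genes, C1qb, rose, with sums of 28.5 FPKM in condition 2 and 15.2 FPKM in condition 1. Lyz2, which has no finite ratio, was at 1.81 FPKM in condition 2 and listed at 0 in condition 1, with a q-value of 0.0199 in the authors' deposited table. Leydig markers had a median of -0.11 and sums of 14.1 FPKM in condition 2 and 14.0 FPKM in condition 1. The part of these cell types in the member folds was not tested.

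At pachytene all 12 endothelial markers lay above 0, with a median log2 fold of 1.24, and Kdr, Pecam1 and Tie1 rose. Their summed level was 22.9 FPKM in condition 2 and 10.3 FPKM in condition 1. Pecam1, an adhesion molecule of vessel walls, had 3.70 FPKM in condition 2 and 0.663 FPKM in condition 1, with a q-value of 0.00111 in the authors' deposited table. Peritubular myoid markers had a median of 0.80, and Acta2, Des and Myh11 rose, with sums of 170 FPKM in condition 2 and 166 FPKM in condition 1. Most of these sums was Actg2, at 98.9 FPKM in condition 2 and 125 FPKM in condition 1. Fibroblast markers had a median of 0.25 and sums of 28.0 FPKM in condition 2 and 24.4 FPKM in condition 1, with none of 10 measured genes called, and Tcf21 and Twist2 were listed at 0 in condition 1. Erythrocyte markers had a median of 1.85 with none called, and sums of 17.2 FPKM in condition 2 and 6.60 FPKM in condition 1. Sertoli markers had a median of 0.34 at pachytene and -0.20 at leptotene/zygotene, with none called in either table. Leydig markers had a pachytene median of -0.25 and sums of 40.7 FPKM in condition 2 and 45.4 FPKM in condition 1. Macrophage markers had a median of 0.18 there, with sums of 8.22 FPKM in condition 2 and 6.97 FPKM in condition 1. None of these 2 lists was called at pachytene. Germ cell markers had medians of 0.10 at pachytene and -0.06 at leptotene/zygotene, with 1 that fell in each. The part of these cells in the pachytene folds of the members was not tested either.

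**Figure D4:**
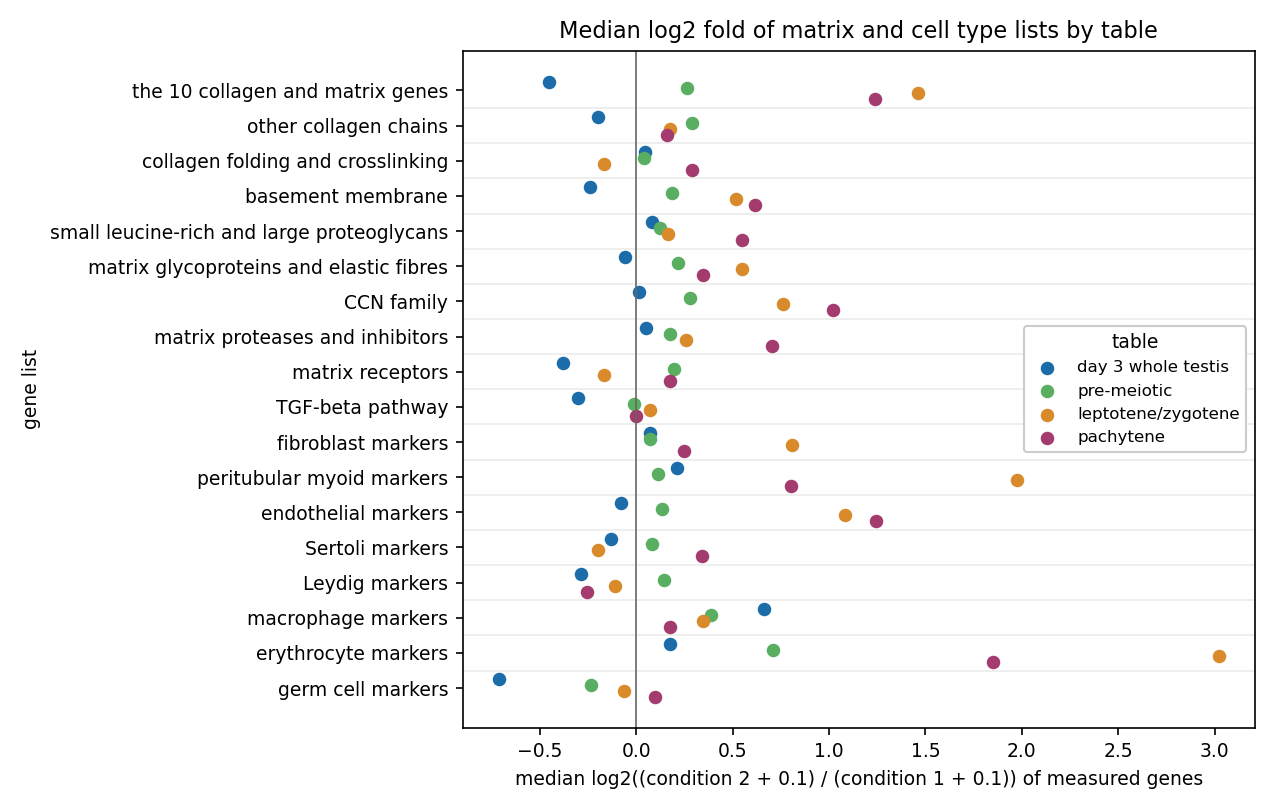
Median log2 fold of condition 2 over condition 1, on the log2(FPKM + 0.1) scale, over the measured genes of each list, with 1 point per table. The 10 genes reach 1.46 at leptotene/zygotene and 1.24 at pachytene, beside 1.98 and 0.80 for peritubular myoid markers and 1.08 and 1.24 for endothelial markers.

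Fibroblast markers were even at day 3, with sums of 885 FPKM in condition 2 and 855 FPKM in condition 1 and a median log2 fold of 0.07, although 3 fell and 1 rose. Of all genes measured at day 3, 5.03% were called higher and 10.4% lower, and the marker counts there stand beside these shares. Macrophage markers had a median of 0.66 at day 3 with 3 of 10 that rose, and germ cell markers a median of -0.71 with 5 of 14 that fell. Endothelial markers had a day 3 median of -0.08, with 3 that fell, Erg, Pecam1 and Tek, and 1 that rose, Egfl7. Sertoli markers had a day 3 median of -0.13, with Kitl and Wt1 lower by the authors' test, and Leydig markers of -0.28, with Cyp17a1 and Star lower and Insl3 higher. Among myoid markers, with a day 3 median of 0.21, Myh11 fell and Des rose. Erythrocyte markers had a day 3 median of 0.18, and 1 of 7, Hbb-b1, rose. In the pre-meiotic table the fibroblast sums were 450.2 FPKM in condition 2 and 399 FPKM in condition 1, with a median of 0.07 and none called. The 4 globin genes rose there as well, and 5 germ cell markers fell, with summed levels of 601 FPKM in condition 2 and 757 FPKM in condition 1. Their part in the member folds was not tested.

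The cell labels were checked against germ cell genes. Ldhc, a lactate dehydrogenase known from pachytene and later cells, had 5408 FPKM in condition 2 and 5421 FPKM in condition 1 at pachytene, and 4116 FPKM in condition 2 and 4507 FPKM in condition 1 at leptotene/zygotene. Dmc1, a recombinase known from leptotene and zygotene cells, had 3.73 FPKM in condition 2 and 3.02 FPKM in condition 1 at leptotene/zygotene, and 4.02 FPKM in condition 2 and 1.75 FPKM in condition 1 at pachytene. The columns of the tables named leptotene/zygotene and pachytene thus overlapped in Dmc1, as they did in Zbtb16 and Kit. Gfra1 was lower in both pachytene columns, and the rest of the germ cell list was higher in both. Piwil1, for one, had 24.8 FPKM in condition 2 and 37.2 FPKM in condition 1 at leptotene/zygotene. At pachytene it had 215 FPKM in condition 2 and 202 FPKM in condition 1. Of 17384 genes, 46.2% were higher there without overlap. Dmc1 was higher than in the leptotene/zygotene columns in the pre-meiotic table, at 12.9 FPKM in condition 2 and 24.1 FPKM in condition 1. At day 3 it was higher too, at 5.02 FPKM in condition 2 and 4.51 FPKM in condition 1. Sycp1 had 34.2 and 49.3 FPKM in conditions 2 and 1 of the pre-meiotic table, against 24.4 and 28.3 FPKM at leptotene/zygotene. Ldhc lay the other way, with 10.6 and 13.1 FPKM in the pre-meiotic table. All tables are called by their names only. The label of the 10 genes as stroma genes was checked by level. They were highest in whole testis and low but above 0 in every column of the spermatocyte tables. The summed fibroblast, Sertoli and Leydig markers were also highest in whole testis and lower in both spermatocyte tables, so the levels do not single out the stroma. Some single fibroblast markers, such as Twist2, were listed at 0 in spermatocyte columns. The summed myoid markers were highest in whole testis too. At leptotene/zygotene they were not as low, at 489 FPKM in condition 2 and 444 FPKM in condition 1. Most of that was Actg2, which had 36.4 FPKM in condition 2 and 31.3 FPKM in condition 1 at day 3. Sertoli markers summed to 66.0 FPKM in condition 2 and 82.3 FPKM in condition 1 at leptotene/zygotene, against 4265 FPKM in condition 2 and 3899 FPKM in condition 1 at day 3.

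Genes outside the 10 whose profile over the 8 columns was most like their mean profile were found by Pearson's r of log2(FPKM + 0.1), over 22082 genes with at least 1 FPKM in 1 column. The closest was F2r, the thrombin receptor, with an r of 0.9996, followed by Smc1a, Ppap2b, Lamc1, 2510009E07Rik, Col6a1, Tcf23 and Slc45a3, the last with 0.9986. Lamc1 and Col6a1 are themselves matrix genes, a laminin chain and a collagen VI chain. F2r had 16.3 FPKM in condition 2 and 23.5 FPKM in condition 1 at day 3, and 0.445 FPKM in condition 2 and 0.171 FPKM in condition 1 at pachytene. Lamc1 had 105 FPKM in condition 2 and 111 FPKM in condition 1 at day 3, and 1.40 FPKM in condition 2 and 0.724 FPKM in condition 1 at pachytene. The members' own r ran from 0.975 in Ctgf to 0.9994 in Col4a1. These r values describe 8 columns that share the step from the day 3 and pre-meiotic tables to the spermatocyte tables. The 8 points are not independent.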

How the data were processed

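mRNA of 8 libraries was measured by RNA-seq, and 2 small RNA libraries were not analysed here. The submitters' processing notes name Cuffdiff, Cufflinks 1.1.0, TopHat 1.3.0 and Bowtie 0.12.7, with a genome build not given in the sources used here. Per the file headers, the authors deposited in each table FPKM per condition and, per gene, a p-value, a q-value, a log2 fold and a test statistic. Depth is unknown, since no counts were used and a search for the worth of 1 read among low FPKM values failed on simulated data. The p-values, q-values and test statistics were copied. Folds, ranks, sums, list medians and profile likeness were computed in Python 3.11.15 with pandas 2.3.3 and numpy 2.4.6, with a pseudocount of 0.1 FPKM, and the code was tested on simulated data. The computed log2 folds without pseudocount matched the authors' to within 4.91e-05.

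The 10 genes, the 18 gene lists and the tests were chosen with earlier results of these data known. Named are the 10 genes and, per list and table, the 2 called genes with the largest folds and the gene with the highest mean level, plus the 8 genes of most similar profile. Other names, such as those in counts of 5 or fewer and the markers Pdgfra, Fbln1, Mfap5, Dmc1, Kit, Actg2, Dpt, Twist1, Twist2 and Tcf21, were chosen after their values were seen. Alternatives were other pseudocounts, limits, filters and scalings. With 1 library per genotype and stage, no test over samples and no leave-one-out was possible.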

Additional observations from a re-analysis of the deposited data

How the results depend on the processing

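Among member folds, only that of Fn1 at leptotene/zygotene, which was not called, changed sign, to 0.06 with the median fold of all genes subtracted. In all, 152 of the alternative values of single folds moved by less than 1 implied error. The other 8, all with a pseudocount of 1 FPKM, were smaller. That pseudocount gave a median log2 fold of 0.99 at leptotene/zygotene and 0.72 at pachytene, with 3 members at least 2-fold higher at pachytene in place of 8. A limit of 0.01 on the authors' q-value left 1 member called at pachytene, Ctgf, in place of 4. With a limit of 1.5-fold, 3 members were lower at day 3 and 1 was higher in the pre-meiotic table, where none reached 2-fold. The shares over all genes at 1.5-fold, with 1 FPKM added or at a q-value of 0.01 were not counted, so these counts have no background beside them. Scaling each column by its upper quartile gave a median ratio of pre-meiotic to leptotene/zygotene level of 37.8 in place of 61.4. The other 112 alternative counts, medians and ratios kept their direction and stayed within the spread set for them, but many of these could not have changed. Counts of called members rest on the authors' q-values, which stay the same under each pseudocount and with the authors' own fold. The filter of at least 1 FPKM in 1 condition removed no member in any table. Values of these kinds do not test how the results depend on the processing. No paired analysis was possible because each stage gave 1 library per genotype and the columns carry no replicate number. Depth is unknown, and its effect on the low levels of the spermatocyte tables was not tested. The median implied error of the members was 0.44 at leptotene/zygotene and 0.48 at pachytene, beside 0.41 and 0.46 over all measured genes.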
